A study of Mus musculus with 6 samples.

Results

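The comparison described here sets E14 mouse embryonic stem cells (ESCs) labelled as Hnrnpf knockout against wild type E14 cells. Both were taken 4 days after leukemia inhibitory factor (LIF) was removed from the medium. The comparison uses 3 of the 6 libraries of the series: 1 wild type library and the knockout libraries that the labels number 1 and 2. Genes were kept if their FPKM (fragments per kilobase of transcript, scaled to the mapped fragments of the library) averaged at least 1 over these 3 libraries, which left 11776 of the 25170 symbols in the table. A gene was taken as shared by the knockout libraries when both lay on the same side of the wild type library. The other 3 libraries, 1 wild type and 2 knockout, were grown with 1000 units/mL LIF in serum medium and enter as the measure of spread and as the comparison group. All cells are of the established E14 line. The labels do not say whether a knockout number stands for a clone or a culture, or which part of Hnrnpf was deleted, so the p-values reflect how far these particular libraries lie apart, a spread that may be technical. The wild type value has no replicate in either medium.

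Hnrnpf encodes hnRNP F, a nuclear protein that binds runs of G in RNA and takes part in splice site choice and in processing of the 3′ end of transcripts. Its paralogs hnRNP H1 and H2 bind similar sequences. LIF acts through its receptor, gp130 and STAT3 to hold mouse ESCs in the naive state. When it is withdrawn in serum, naive factors such as Klf4, Esrrb and Tfcp2l1 go down, formative genes such as Fgf5, Otx2 and Dnmt3b come up, and cells then take on germ layer or extraembryonic identities.

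The promoters of 4 genes are printed first, from groups described below: Mest and Meg3 for imprinted genes, Isg15 and Irgm1 for genes induced by interferon. No tested member of the interferon list passed the threshold used below. Each is the 250 bases before the RefSeq start, from the GRCm38.p6 assembly, written 5′ to 3′ along the gene's strand. They lie at chr6:30737800-30738049 (plus strand, Mest), chr12:109540746-109540995 (plus, Meg3), chr4:156200819-156201068 (minus, Isg15) and chr11:48871421-48871670 (minus, Irgm1). In the first pair capitals mark CG, the dinucleotide at which imprinted promoters are methylated on 1 parental copy, and methylation was not measured here. In the second pair capitals mark GAAANNGAAA, the core of the interferon-stimulated response element.
Mest: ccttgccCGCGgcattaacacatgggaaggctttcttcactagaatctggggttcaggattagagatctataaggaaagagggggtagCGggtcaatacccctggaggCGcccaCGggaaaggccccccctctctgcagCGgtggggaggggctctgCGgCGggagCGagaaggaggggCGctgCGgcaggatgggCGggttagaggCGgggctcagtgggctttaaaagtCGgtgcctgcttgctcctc
Meg3: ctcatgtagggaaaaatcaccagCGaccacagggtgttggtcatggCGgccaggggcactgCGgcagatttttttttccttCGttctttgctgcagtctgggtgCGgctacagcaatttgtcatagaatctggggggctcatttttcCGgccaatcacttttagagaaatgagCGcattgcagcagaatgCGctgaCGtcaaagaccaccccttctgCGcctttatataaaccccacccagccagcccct
Isg15: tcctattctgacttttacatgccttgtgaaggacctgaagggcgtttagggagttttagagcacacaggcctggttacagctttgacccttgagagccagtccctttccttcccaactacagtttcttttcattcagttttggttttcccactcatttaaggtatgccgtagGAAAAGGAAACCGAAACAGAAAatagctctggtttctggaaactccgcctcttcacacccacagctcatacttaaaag
Irgm1: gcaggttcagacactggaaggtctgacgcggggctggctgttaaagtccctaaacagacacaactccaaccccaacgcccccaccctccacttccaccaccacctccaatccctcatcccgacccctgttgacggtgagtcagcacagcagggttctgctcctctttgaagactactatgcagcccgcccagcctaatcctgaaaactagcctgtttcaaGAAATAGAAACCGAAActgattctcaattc
RefSeq gives Mest and Meg3 further start sites, and the windows with the most CG are shown. The printed Mest window holds 14 CG, a number reached by 29.4% of all 32851 RefSeq promoter windows of this length, and the printed Meg3 window holds 10, reached by 37.8%. Another Mest window holds 7 and another Meg3 window none. At least 1 CG stands in 92.1% of windows. GAAANNGAAA, searched on both strands with overlapping matches counted, stands in 2.98% of windows, 3 times in the Isg15 window and 2 times in the Irgm1 window.

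Hnrnpf itself (chromosome 6, 117900324 to 117925622, plus strand, GRCm38) was at 335 FPKM in wild type cells. It was 95.2 FPKM in knockout library 1 and 27.8 in knockout library 2, or 28.4% and 8.28% of wild type. Both knockout libraries were thus far below wild type, and they differed from each other. The log2 difference, here always knockout minus wild type on log2(FPKM + 1), was -2.68 (SE 0.76), and with that spread the gene missed the threshold (limma adjusted p = 0.178). The paralog Hnrnph1 (chromosome 11, 50376990 to 50386528, plus strand) stood at 281 FPKM in wild type cells and at 558 and 550 in knockout cells, a log2 difference of 0.98 (SE 0.14, limma adjusted p = 0.129). Both knockout values were higher and close together, but the gene lies on a chromosome whose median gene was also higher, as given further on. Hnrnph2, on the X chromosome, stood at 54.0 FPKM in wild type and at 53.4 and 52.3 in the knockout libraries. Because these paralogs resemble each other in sequence, how the counting divided their shared reads is not known.

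Across all genes, 7 rose in knockout cells after LIF removal and passed the threshold (limma, Benjamini-Hochberg adjusted p under 0.05), which is 0.0594% of those tested, and none fell (0.00%). By limma without adjustment, 1839 genes (15.6%) were under 0.05, 997 higher and 842 lower. The 7 are the imprinted genes Mest, Rian, Meg3 and Mirg, the protease inhibitor gene Serpina3m, the uridine phosphorylase gene Upp1 and the cilium gene Mks1.

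Mest (chromosome 6, 30723547 to 30748465, plus strand), a paternally expressed gene for a hydrolase-like protein, was at 15.2 FPKM in wild type cells and at 235 and 241 in the knockout libraries, a mean of 238 ± 4.22 (SD, n = 2). Its log2 difference was 3.88 (SE 0.17, limma adjusted p = 0.000987). A trio of long non-coding RNAs expressed from the maternal copy of the Dlk1-Dio3 domain on chromosome 12 also rose. Meg3 (109541001 to 109571726, plus strand) went from 8.92 FPKM to 116 and 124, a log2 difference of 3.61 (SE 0.20, adjusted p = 0.00226). Rian (109603940 to 109661716, plus strand) went from 13.4 FPKM to 180 and 175 (3.63, SE 0.17, adjusted p = 0.000987). Mirg (109729764 to 109749460, plus strand), host of many microRNAs, went from 0.954 FPKM to 16.8 and 19.4 (3.28, SE 0.22, adjusted p = 0.00542). In all of these the knockout libraries lay close to each other and between 13.0 and 20.3 times the wild type value.

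Serpina3m (chromosome 12, 104338486 to 104394257, plus strand), of the alpha-1-antichymotrypsin family, was nearly silent in the wild type library at 0.108 FPKM and stood at 27.5 and 45.8 in the knockout libraries (log2 difference 5.04, SE 0.43, limma adjusted p = 0.0223). None of the 10 other Serpina3 genes of the cluster averaged 1 FPKM. The highest of them, named here after its values were seen, was Serpina3k at 0, 0.544 and 1.50 FPKM in wild type, knockout 1 and knockout 2. The members are close copies, so reads could be assigned to the wrong one.

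Upp1 (chromosome 11, 9118103 to 9136170, plus strand), whose enzyme splits uridine into uracil and a ribose phosphate, stood at 82.3 FPKM in wild type and at 277 and 244 in knockout cells (1.65, SE 0.16, limma adjusted p = 0.0407). Mks1 (chromosome 11, 87853215 to 87863803, plus strand), a component of the ciliary transition zone, stood at 3.41 FPKM and at 16.9 and 15.3 (1.95, SE 0.19, adjusted p = 0.0423). These were the weakest of the calls. Without knockout library 1 the adjusted p was 0.0953 for Upp1 and 0.123 for Mks1, and without knockout library 2 it was 0.0653 and 0.124, while that of Serpina3m became 0.0510. Without a filter on low values, which added weakly expressed genes and raised the number tested to 18091, none of the 7 passed (smallest limma adjusted p = 0.162, with 2254 genes under 0.05 before adjustment). Leaving out a library grown with LIF raised the number of calls, to 37 for knockout 1 (30 higher, 7 lower) and 47 for knockout 2 (37 higher, 10 lower), and all 7 were among them each time. The absence of lower calls thus holds in the fit of all 6 libraries and not in these. In these the residual spread comes from the knockout pair after LIF removal alone, with 1 residual degree of freedom.

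**Figure D1:**
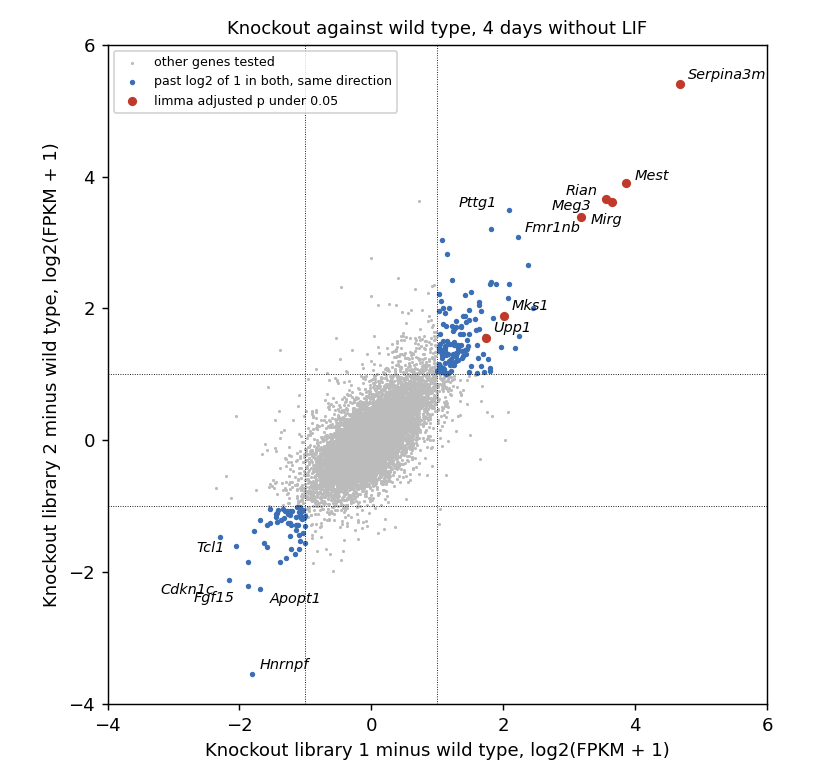
Log2 difference from wild type in knockout library 1 (x axis) and knockout library 2 (y axis), log2(FPKM + 1), for the 11776 genes tested after LIF removal; dotted lines mark a log2 of 1 in either direction. The 7 genes that passed limma (red) all lie at the upper right, and Hnrnpf lies lowest, at -1.81 and -3.55; both axes share the same wild type library, so part of the diagonal spread is common to both.

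The rule asks for agreement of both knockout libraries. Of the genes tested, 131 (1.11%) were higher by a log2 of at least 1 in both knockout libraries and 57 (0.484%) were lower in both. In library 1 alone 230 genes were past this size upward and 180 downward. In library 2 alone the numbers were 362 and 142, and 3 genes were past it in opposite directions. The differences of both libraries are taken from the same wild type library, so an error in that library would count as agreement. The number also depends on the pseudocount: with 0.1 in place of 1 it was 299 higher and 109 lower, and with 5 it was 27 and 11.

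After the called genes, the largest rises shared by both knockout libraries were in Fmr1nb, Gbp3, Pttg1, Gngt2, Plagl1 and Tex19.1, none of which passed the threshold. Fmr1nb, an X-linked gene known from testis and tumours, stood at 5.30 FPKM in wild type and at 28.3 and 52.3 in knockout cells (2.65, limma adjusted p = 0.0869). Its log2 difference was 2.22 in knockout library 1 and 3.08 in knockout library 2. Tex19.1, expressed in germ cells and ESCs, stood at 19.5, 70.2 and 105 FPKM in wild type, knockout 1 and knockout 2. Pttg1, which encodes securin, the inhibitor of separase, stood at 8.86, 40.8 and 110 FPKM. In these 3 genes library 2 was the higher of the pair. Gbp3, a guanylate-binding protein gene induced by interferon, stood at 0.813, 6.73 and 8.42 FPKM. Gngt2, a G protein gamma subunit gene, stood at 0.795, 8.84 and 6.20 FPKM, and Plagl1, an imprinted zinc finger gene, at 1.10, 6.78 and 9.86. Each of them lay above wild type in both knockout libraries, with adjusted p between 0.0734 and 0.140 in limma. Fits that drop a knockout library grown with LIF take their residual spread from the pair by which these genes were chosen. With 1 residual degree of freedom from that pair, such fits are no further test of these genes.

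Ranked by the smaller of the differences in the knockout libraries, the largest shared fall was in Cdkn1c, the maternally expressed gene for the cyclin-dependent kinase inhibitor p57, at 47.5 FPKM in wild type against 9.89 and 10.2 in knockout cells (-2.13, SE 0.27, limma adjusted p = 0.0869). Fgf15, a secreted fibroblast growth factor, stood at 21.2 FPKM against 5.10 and 3.80 (-2.04, SE 0.32, adjusted p = 0.129). Tcl1, a co-activator of Akt that is high in naive ESCs, stood at 18.9 FPKM against 3.80 and 5.55 (-1.83, SE 0.23, adjusted p = 0.0869). In all of these the groups were well apart, yet none passed the threshold in the fit of all 6 libraries. Fits without a knockout library grown with LIF draw their residual spread from the same pair that ranked these genes, so they are no further test. Grb10, a maternally expressed adaptor that restrains insulin and IGF receptors, was 165 FPKM in wild type and 66.6 and 47.3 in knockout cells, against the direction of most of chromosome 11. Apopt1, linked to cytochrome c oxidase assembly, was 26.3 FPKM against 7.50 and 4.74. Ada, the adenosine deaminase gene, was 7.12 FPKM against 2.10 and 1.26. Irf3, the transcription factor that turns on interferon genes after nucleic acid sensing, was 9.39 FPKM against 2.03 and 3.01. Tmem54 was 24.1 FPKM against 7.61 and 9.57, and Gipc1, a trafficking adaptor, was 76.9 against 32.0 and 27.5. The adjusted p of these 6 genes, Grb10 to Gipc1, lay between 0.129 and 0.154 in limma.

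**Figure D2:**
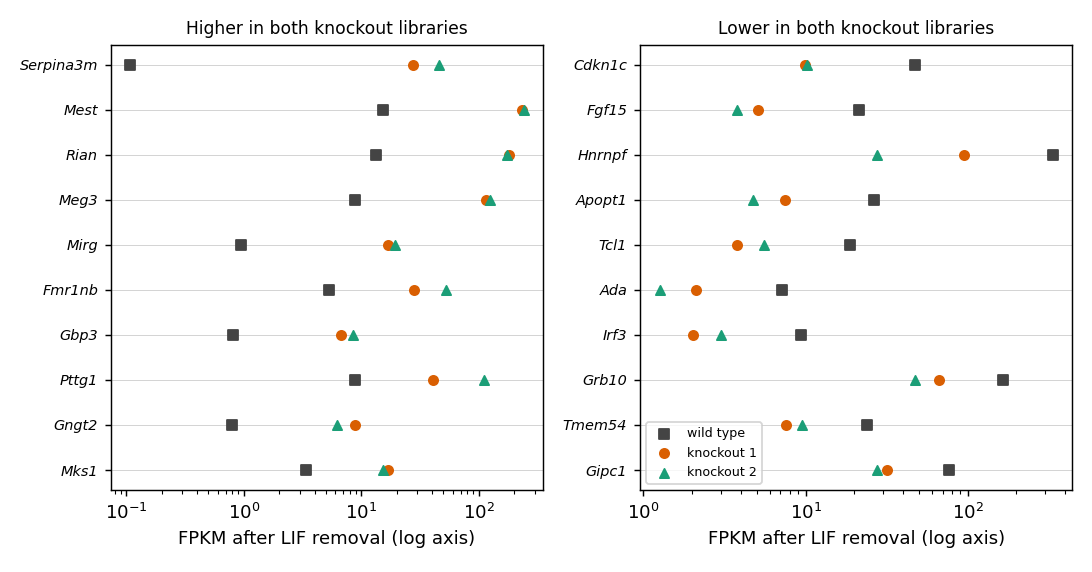
FPKM after LIF removal on a log axis for the 10 genes with the largest rise (left) and the 10 with the largest fall (right) shared by both knockout libraries; squares are the wild type library, circles knockout 1 and triangles knockout 2. The genes were chosen for lying apart, so the gap between squares and the other points is a description; Pttg1 (40.8 and 110) and Hnrnpf (95.2 and 27.8) show the widest spread between the knockout libraries among those above 20 FPKM.

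The groups of genes below are read against all genes tested, of which 35.9% were above wild type in both knockout libraries, 38.7% below in both and the rest split, with a median log2 difference of -0.02. The first question was how far knockout cells had left the naive state. All 20 naive pluripotency genes listed were tested, none passed the threshold, 8 were higher in both knockout libraries, 5 lower in both and 7 split. Their median was 0.34 in knockout library 1 and -0.13 in library 2, so the libraries lay on opposite sides of wild type. Klf4, a LIF target and reprogramming factor, stood at 2.65 FPKM in wild type and at 6.21 and 10.5 in knockout cells (1.32, limma adjusted p = 0.153). Tbx3, another factor of the naive network, stood at 1.90 FPKM against 4.58 and 8.05 (1.29, adjusted p = 0.146), and Dppa3 at 14.4 against 32.1 and 26.2 (0.96, adjusted p = 0.154). In these the knockout libraries were both higher, while in Tcl1, given above, both were lower. Esrrb was 40.5 FPKM in wild type and 52.7 and 33.1 in knockout cells, Zfp42 147 against 236 and 111, and Tfcp2l1 9.58 against 10.02 and 7.87. These orphan receptor, zinc finger and CP2-family factors had 1 knockout library on each side of wild type.

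Of the 8 core pluripotency genes, all tested and none past the threshold, 2 were higher and 5 lower in both knockout libraries, with a median of -0.21. Pou5f1, which encodes OCT4, stood at 960 FPKM in wild type and at 587 and 683 in knockout cells (-0.60, limma adjusted p = 0.154). Utf1 stood at 496 FPKM against 365 and 368, Lin28a at 244 against 165 and 200, and Sox2 at 183 against 163 and 144. Nanog was the other way, at 126 FPKM against 185 and 146 (0.38, adjusted p = 0.400). All these genes thus remained well expressed in every library.

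The formative and primed epiblast list, the genes that mark the step after the naive state, had 16 members, all tested and none past the threshold. In all, 9 were lower in both knockout libraries, 3 higher and 4 split. The median was -0.58 in library 1 and -0.08 in library 2. Dnmt3b, the de novo DNA methyltransferase of the epiblast, stood at 379 FPKM in wild type and at 236 and 275 in knockout cells (-0.57, limma adjusted p = 0.211). Otx2, a transcription factor of this stage, stood at 78.8 FPKM against 63.5 and 52.8 (-0.44, adjusted p = 0.294), and Cldn6, a tight junction gene, at 194 against 98.2 and 144 (-0.70, adjusted p = 0.242). Both knockout libraries were below wild type in these, library 1 lowest for Dnmt3b and Cldn6. Fgf5 stood at 52.7 FPKM in wild type and at 31.1 and 53.5, so only library 1 was lower. Lef1, a Wnt effector, stood at 25.4 FPKM against 31.4 and 30.3.

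Of the LIF receptor and STAT3 list 13 of 14 genes were tested, 4 were higher and 6 lower in both knockout libraries, and the median was -0.15. The kinase genes Pim3 and Pim1, induced by STAT3, stood at 75.0 FPKM against 37.0 and 44.4 (-0.87, limma adjusted p = 0.136) and at 59.0 against 27.8 and 39.5 (-0.81, adjusted p = 0.177). Stat3 itself was 6.78 FPKM against 8.43 and 10.7 and the adhesion gene Icam1 was 6.29 against 7.01 and 9.49. No member passed the threshold.

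Among germ layer genes, the primitive streak and mesendoderm list had 7 of 16 members tested, of which 4 were higher in both knockout libraries and 1 lower. T, which encodes brachyury, stood at 1.81 FPKM in wild type and at 4.45 and 13.3 in knockout cells (1.65, limma adjusted p = 0.231). Its Wnt-linked companions Wnt3 and Sp5 stood at 2.95 FPKM against 4.39 and 7.49, and at 1.92 against 3.05 and 10.3, and Mesp2 at 0.853 against 2.10 and 1.62. Except for Mesp2, knockout library 2 was highest. Eomes was the other way, at 13.6 FPKM against 6.92 and 10.3 (-0.63, adjusted p = 0.360), and Mixl1 stood at 1.03 against 0.740 and 1.64. Of 14 early neural genes 6 were tested, 4 were lower in both knockout libraries and none higher, with a median of -0.55. Tubb3, a neuronal tubulin gene, stood at 77.1 FPKM against 48.4 and 47.5 (-0.67, adjusted p = 0.146), Sox11 at 20.8 against 11.8 and 12.1 (-0.75, adjusted p = 0.159) and Pax6 at 4.50 against 2.67 and 2.43. Nes, an intermediate filament gene of neural progenitors, stood at 18.3 FPKM against 11.2 and 16.0.

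Trophoblast genes were mostly higher in knockout cells. In the trophoblast list 10 of 12 genes were tested, 8 were higher in both knockout libraries and none lower, with a median of 0.46 in library 1 and 1.05 in library 2. Esx1, an X-linked homeobox gene of the placenta, stood at 2.37 FPKM against 7.29 and 7.46 (1.31, limma adjusted p = 0.146), and Tfap2c, a trophoblast and germ cell factor, at 10.7 against 17.5 and 17.1 (0.65, adjusted p = 0.206). Hand1 stood at 1.33 FPKM against 2.87 and 4.41, the keratin gene Krt18 at 49.8 against 65.8 and 143, and Cdx2, the trophectoderm homeobox gene, at 0.995 against 1.46 and 2.68. Knockout library 2 was the highest in each of these but Tfap2c. The primitive endoderm and basement membrane list had 9 of 16 genes tested, 5 higher and 2 lower in both, with a median of 0.28. Sparc, a matrix glycoprotein gene on chromosome 11, stood at 67.8 FPKM against 97.3 and 172, the collagen prolyl hydroxylase gene P4ha2 at 6.27 against 10.4 and 9.98, and Nid1 at 6.999 against 9.12 and 11.9. The laminin gene Lamc1 was lower, at 57.7 FPKM against 46.0 and 37.3. Gata4 stood at 1.42 against 1.92 and 1.56.

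Markers of cell types the cultures could hold were summed. The 6 ESC markers summed to 1981 FPKM in wild type and to 1596 and 1500 in knockout cells. The 4 trophoblast markers summed to 3.71, 6.09 and 10.1 FPKM with Elf5 at or under 0.0427, the 6 primitive endoderm markers to 5.41, 7.76 and 11.8 with Sox17 at or under 0.272 and Gata6 at or under 0.457, and the 10 fibroblast markers to 6.38, 7.09 and 9.96 with Fap listed at 0 in every library. The 3 early neural markers summed to 23.4, 14.1 and 18.9 FPKM and the 4 mesendoderm markers to 16.6, 12.1 and 25.2, with Mesp1 at or under 0.189. ESC markers thus had the largest sum in every library, and knockout library 2 had the highest sums for all but the neural and ESC markers. Single genes weighed heavily, Thy1 among fibroblast markers (4.76, 4.05 and 5.16 FPKM) and Dab2 among primitive endoderm markers (3.62, 5.21 and 9.09). Among mesendoderm markers T was higher and Eomes lower in both knockout libraries. The sums depend on how strongly each marker is expressed, so they do not give shares of cells. In bulk RNA, fewer cells of a type and less RNA per cell cannot be told apart, and the part that other cell types had in the gene differences was not tested.

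Genes of shape and adhesion were divided. In the mesenchymal transition and actin cytoskeleton list 16 of 20 genes were tested, 6 were higher in both knockout libraries, 3 lower and 7 split. The median was 0.05 in library 1 and 0.38 in library 2. Vim, the vimentin gene, stood at 29.5 FPKM against 42.0 and 86.9, and Acta2, smooth muscle actin, at 0.744 against 1.87 and 20.5. Library 2 stood well apart in both. Calponin gene Cnn2 was 99.7 FPKM against 55.5 and 87.1. Of 18 epithelial junction and keratin genes, 6 were higher and 8 lower in both. Krt19, a keratin gene on chromosome 11, stood at 10.8 FPKM against 29.9 and 35.2 (1.50, SE 0.27, limma adjusted p = 0.129), whereas the claudin gene Cldn4 stood at 73.8 against 42.3 and 49.7 (-0.67, adjusted p = 0.167).

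Imprinted genes, expressed from 1 parental copy, held 4 of the 7 calls, where 0.0594% of all genes tested were called. Meg3, Rian and Mirg lie in 1 domain of chromosome 12 on the same strand, so the calls do not count separate loci. Of 20 paternally expressed genes 19 were tested, 16 were higher in both knockout libraries and none lower. Of these, 5 were past a log2 of 1 in both, and Mest passed the threshold. The median was 0.43 in library 1 and 0.83 in library 2, and 0.46 over both for the 14 members off chromosomes 6, 8 and 11. Igf2, the fetal growth factor, stood at 3.95 FPKM against 12.2 and 17.2 (1.65, limma adjusted p = 0.159), and Zrsr1, a paternally expressed gene related to a splicing factor, at 4.26 against 9.67 and 12.9 (1.21, adjusted p = 0.146). With Plagl1, given above, these lay clear of wild type in both knockout libraries. The 12 tested of 15 maternally expressed genes went both ways: 6 were higher and 5 lower in both, with the Meg3, Rian and Mirg calls at 1 end and Cdkn1c and Grb10 at the other. Their median of 0.02 turns to -0.00052 after quantile normalization.

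The hnRNP family itself was tested in full with 28 members, with a median of -0.14 and none past the threshold. Of the 28, 17 were lower in both knockout libraries, 6 higher and 5 split. The 17 include Hnrnpf, the gene labelled as knocked out. Hnrnpdl stood at 118 FPKM against 64.3 and 75.3 (-0.75, limma adjusted p = 0.146), and Pcbp1, a poly(C)-binding protein gene, at 254 against 343 and 363 (0.47, adjusted p = 0.183). Of 33 splicing regulators 31 were tested, 10 were higher and 14 lower in both, and the median was -0.04, or 0.0081 after quantile normalization. The muscleblind genes Mbnl2 and Mbnl1 stood at 12.7 FPKM against 19.7 and 23.0 and at 2.13 against 5.22 and 3.88. Tia1, which binds U-rich introns, was 10.96 FPKM against 21.2 and 16.4, and U2af2, the large subunit of the factor that recognises the 3′ splice site, was 179 against 123 and 139. The table gives 1 value a gene, so exon use could not be measured.

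Interferon and antigen presentation genes were tested at 21 of 25, with 17 higher in both knockout libraries and 2 lower, and 4 of them past a log2 of 1 in both. The median was 0.39 in library 1 and 0.34 in library 2. Off chromosomes 6, 8 and 11 it was 0.35, with 13 higher and 1 lower of 16. Ifitm3, which blocks virus entry, stood at 89.6 FPKM in wild type and at 224 and 231 in knockout cells (1.33, limma adjusted p = 0.0580), the nearest to a call. Irgm1 and Igtp, immunity-related GTPase genes, stood at 9.90 FPKM against 27.1 and 34.9 and at 1.75 against 5.08 and 6.81, and Isg15, the ubiquitin-like modifier, at 1.60 against 5.71 and 7.69 (1.55, adjusted p = 0.140). All 4 were higher in both knockout libraries. Of the 19 tested members with a promoter window, 7 hold GAAANNGAAA in it: Isg15, Irgm1, Igtp, B2m and Ifitm2, which were higher in both knockout libraries, and Bst2 and Stat2, the list's members that were lower in both. This is a description of letters. Some of these genes belong to families of close copies, so their values carry the same doubt as Serpina3m.

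The list of p53 targets and arrest genes had 20 of 21 members tested, 12 higher in both knockout libraries, 4 lower and none past the threshold, with a median of 0.14 in library 1 and 0.43 in library 2. Ccng1, which encodes cyclin G1, stood at 147 FPKM against 284 and 333 (1.06, limma adjusted p = 0.146), Trp53inp1 at 69.5 against 122 and 139 (0.89, adjusted p = 0.146), and Pmaip1, which encodes NOXA, at 6.15 against 12.1 and 15.5. Gadd45a, a stress gene, stood at 24.3 against 39.4 and 44.0, and Cdkn1a, which encodes p21, at 41.7 against 55.1 and 79.9. The 4 members lower in both were added here after their values were seen. Bbc3 and Bax stood at 40.2 FPKM against 21.9 and 26.4 and at 244 against 151 and 206. Cdkn2a stood at 23.8 FPKM against 12.5 and 19.7 and Sesn2 at 91.4 against 82.5 and 87.1. Off chromosomes 6, 8 and 11 the median was 0.25, with 10 higher and 4 lower of 17. The germline and meiosis list had 15 of 20 tested, 6 higher and 3 lower in both, with a median of 0.20. Dmrt1, a testis determination factor, stood at 15.2 FPKM against 26.1 and 30.02 (0.84, adjusted p = 0.140), and the meiotic cohesin gene Rec8 at 2.57 against 5.74 and 5.07.

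Genes of glycolysis were mostly lower. Of 20 genes, all tested, 13 were lower in both knockout libraries, 6 higher and 1 split, and none passed the threshold. The median was -0.18 in library 1 and -0.30 in library 2, and -0.41 over both for the 13 members off chromosomes 6, 8 and 11, of which 10 were lower and 2 higher. Ldha, lactate dehydrogenase A, stood at 1778 FPKM in wild type and at 1082 and 1150 in knockout cells (-0.67, limma adjusted p = 0.140). Pgk1, phosphoglycerate kinase, stood at 210 against 86.2 and 119 (-1.04, adjusted p = 0.146), Pfkl, a phosphofructokinase gene, at 144 against 73.4 and 94.2, and Pkm, pyruvate kinase, at 2276 against 1551 and 1691. In all 4 both knockout libraries were lower.

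In the cell cycle list, all 26 tested, 8 were higher and 12 lower in both knockout libraries, with a median of -0.07. Off chromosomes 6, 8 and 11 the median was -0.15, with 4 higher and 11 lower of 19. Beside Pttg1, the kinase gene Aurkb stood at 53.2 FPKM against 74.2 and 76.0 and the helicase gene Mcm2 at 88.7 against 126 and 123, while Cdk4 stood at 516 against 315 and 388. Of 12 DNA methylation genes, all tested, 4 were higher and 7 lower in both. Uhrf1, which brings the maintenance methyltransferase to DNA, stood at 103 FPKM against 66.0 and 65.6 (-0.63, limma adjusted p = 0.146). Zfp57, a zinc finger protein that protects methylation at imprinted regions, stood at 50.04 against 129 and 83.8 (1.04, adjusted p = 0.175). Dppa3, an inhibitor of Uhrf1, was also higher, as given above. None of these passed the threshold.

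Signalling lists had medians near that of all genes or slightly off it. In the ERK feedback and immediate early list 4 of 14 genes were higher and 7 lower in both knockout libraries, with a median of -0.17. The feedback genes Spry4, Dusp4 and the ETS gene Etv4 stood at 25.6 FPKM against 15.3 and 14.9 (-0.72, limma adjusted p = 0.146), 43.1 against 24.7 and 27.2 (-0.71, adjusted p = 0.154) and 20.8 against 11.3 and 12.6 (-0.75, adjusted p = 0.154). Egr1, an immediate early gene, was the other way, at 17.5 FPKM against 33.1 and 26.8. The BMP and Id list had 11 of 12 tested, 7 higher and 3 lower in both, with a median of 0.22. Its homeobox targets Msx2 and Msx1 stood at 0.986 FPKM against 2.33 and 4.69 and at 1.24 against 2.30 and 4.34, and Id3 at 38.1 against 55.5 and 79.4, while Id1 stood at 121 against 83.2 and 90.5. In the Wnt list 10 of 13 were tested, 6 higher and 4 lower, with a median of 0.15. Axin2, the feedback inhibitor on chromosome 11, stood at 6.85 FPKM against 10.9 and 15.2, Tcf7 at 37.5 against 48.2 and 48.6, and the receptor gene Fzd7 at 82.5 against 61.5 and 59.0. In the Nodal list, all 12 tested, 3 were higher and 6 lower, with a median of -0.10. The receptor gene Acvr2b stood at 22.5 FPKM against 15.1 and 14.7, the proprotein convertase gene Furin at 9.97 against 5.50 and 6.78, the effector gene Foxh1 at 53.2 against 29.0 and 46.3, and the inhibitor Lefty2 at 35.1 against 44.8 and 46.8. No member of these lists passed the threshold.

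**Figure D3:**
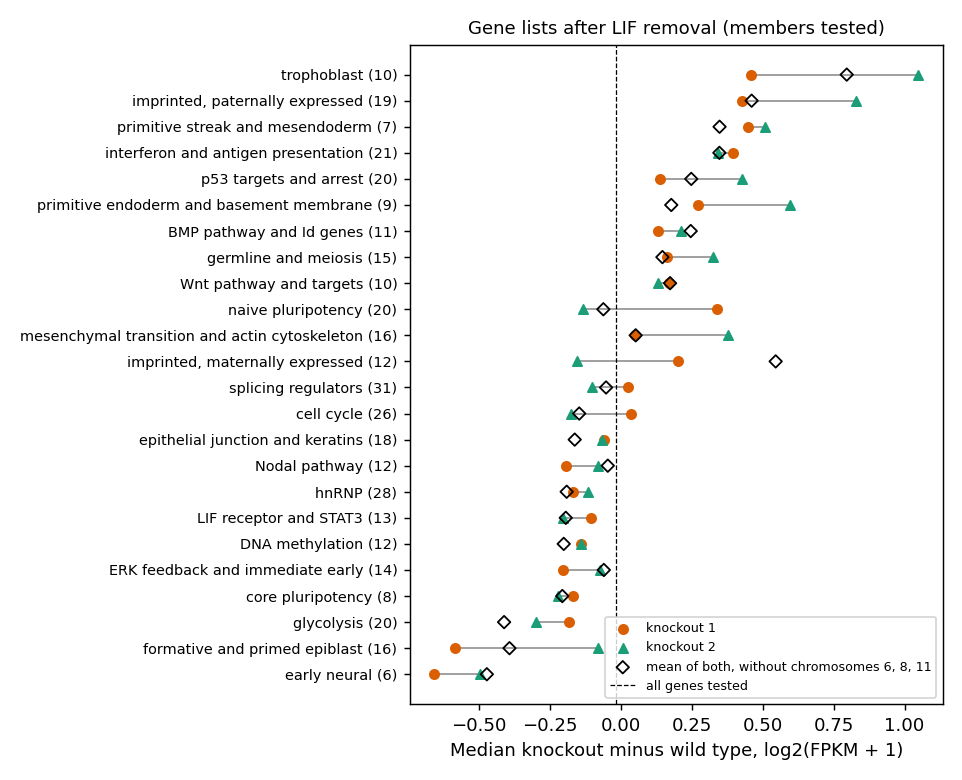
Median log2 difference from wild type after LIF removal for each list with at least 5 members tested (number in brackets): circles are knockout 1, triangles knockout 2, open diamonds the members off chromosomes 6, 8 and 11 with both libraries averaged, and the dashed line all genes tested. Trophoblast (0.80) and paternally expressed genes (0.68) have the highest medians over both libraries and early neural genes (-0.55) the lowest; only tested members enter, and naive pluripotency lies on both sides of 0.

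Position in the genome moved with many of these values. The 1006 tested genes of chromosome 11 had a median log2 difference of 0.42 in library 1 and 0.48 in library 2, and 81.7% of them were above wild type in both. Of the 131 genes past a log2 of 1 upward in both libraries, 37 lie on chromosome 11 and 27 on chromosome 6. Chromosome 6 holds 536 of the 11776 genes tested. Its stretch from 50 to 100 Mb holds 21 of the 27, and the rest of it holds 6 among 357 genes tested. On chromosome 6 the stretch from 50 to 100 Mb had a median of 0.64 and 0.68 over 179 genes, and the rest of the chromosome, where Hnrnpf and Mest lie, had -0.01 and 0.02. On chromosome 8 the first 30 Mb had a median of -0.38 and -0.29 over 112 genes, while the other 545 genes had -0.01 in library 1 and -0.42 in library 2. Of the 57 genes past the same size downward, 11 lie on chromosome 8, among them Gipc1. Zfp42, Tubb3, Dusp4 and Bst2, named above, lie on chromosome 8 too, none of them past that size in both libraries. Zfp42 lies beyond the first 30 Mb, and its log2 difference was 0.68 in library 1 and -0.41 in library 2. The other 17 chromosomes had medians between -0.14 and 0.09. The part that these shifts had in the values of single genes was not tested. Genes off chromosomes 6, 8 and 11 gave 65 higher and 43 lower of 9577. A limma fit on those genes alone called 5, all higher, with Meg3, Rian, Mirg and Serpina3m shared with the full fit and Ifitm3 in addition. The positions that follow cover only part of the genes named above that lie on these chromosomes. Upp1, Mks1, Hnrnph1, Pttg1, Tex19.1, Gngt2, Ccng1, Irgm1 and Igtp lie on chromosome 11. So do Stat3, Wnt3, Tcf7, Hand1, Zrsr1 and P4ha2. Mest and Nanog lie on chromosome 6, outside the stretch from 50 to 100 Mb. Dppa3, Gadd45a, Tia1 and Pcbp1 lie on chromosome 6 as well, and their place along it is not given here.

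**Figure D4:**
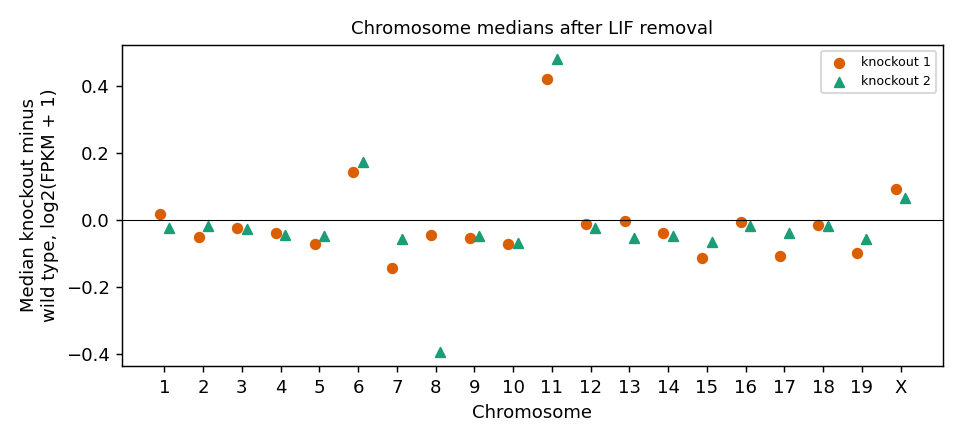
Median log2 difference from wild type after LIF removal of the genes tested on each chromosome, in knockout 1 (circles) and knockout 2 (triangles). Chromosome 11 lies highest in both libraries (0.42 and 0.48), and chromosome 8 taken whole is at -0.39 in library 2 and -0.04 in library 1.

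The knockout effect after LIF removal was then set against the effect with LIF, by testing the difference of the differences. No gene passed (0 of 11776, 0.00%; smallest limma adjusted p = 0.9996), and 339 genes (2.88%) were under 0.05 before adjustment. In the same fit 5 genes (0.0425%) were called with LIF: Mest, Rian, Meg3, Mirg and Serpina3m. All of them are among the 7 called after LIF removal. Mest stood at 19.4 FPKM with LIF and 15.2 without, but its knockout values were 125 and 153 with LIF and 235 and 241 after removal, so its log2 difference was 2.77 with LIF and 3.88 after. The corresponding pairs were 2.54 and 3.63 for Rian, 2.49 and 3.61 for Meg3 and 2.26 and 3.28 for Mirg, and the difference was not called for any. For Serpina3m the log2 difference was 5.24 with LIF and 5.04 after.

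Dnmt3b, Id1, Fhl3 and Hopx had the lowest p among genes whose knockout effect was more negative after LIF removal. Dnmt3b stood at 117 FPKM in wild type cells with LIF and at 379 after removal, against 174 and 211 with LIF and 236 and 275 after in knockout cells. Its knockout values therefore lay above wild type with LIF and below it after, a change of -1.28 (SE 0.25, limma adjusted p = 0.9996 for the difference). Id1, an inhibitor of helix-loop-helix factors, followed the same order, at 66.6 and 121 FPKM in wild type against 92.8 and 98.0 with LIF and 83.2 and 90.5 after. Fhl3, a LIM domain gene, stood at 7.73 and 21.7 FPKM in wild type, and knockout values were 12.5 and 11.4 with LIF and 13.2 and 13.5 after. Hopx, a homeodomain-only cofactor gene, stood at 2.02 and 8.54 in wild type, with knockout values of 7.10 and 12.7 and then 7.09 and 4.86. In all 4 the wild type library without LIF was the higher of the wild type pair, and knockout values of a number differed less between media on the log2 scale.

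The genes with the lowest p in the other direction were Lsm7, Mymx, Dynlt1f and Atp5e. Lsm7, of the ring that binds U6 RNA, stood at 10.5 FPKM in wild type with LIF and 2.14 after, against 1.61 and 1.97 and then 3.81 and 6.16 in knockout cells. Mymx, a myoblast fusion factor, stood at 77.8 and 2.25 in wild type, with knockout values of 30.2 and 30.3 and then 3.54 and 4.66. Atp5e, a subunit of ATP synthase, stood at 162 and 76.4 in wild type, with knockout values of 63.3 and 63.2 and then 74.7 and 69.9. Here the wild type library with LIF was the high one in each gene. Dynlt1f, a dynein light chain gene with close copies in the genome, stood at 3.97 and 2.66 in wild type, with knockout values of 1.26 and 0.623 and then 6.54 and 7.04. Each of these contrasts rests on a single wild type library in each medium.

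The formative list had a median of 0.55 with LIF and -0.39 after removal, and early neural genes had 0.02 and -0.55. After removal the formative median was -0.58 in library 1 but -0.08 in library 2, near the -0.01 of all genes there. Each median rests on 1 wild type library a medium. Naive genes stood at -0.38 with LIF and 0.09 after, or -0.06 after without the members on chromosomes 6, 8 and 11. For p53 targets the medians were -0.04 and 0.31, and for glycolysis -0.04 and -0.27. Trophoblast genes, at 0.57 and 0.80, paternally expressed genes, at 0.63 and 0.68, and interferon genes, at 0.40 and 0.46, stood on the same side in both media. These are descriptions of medians, and no difference between media was tested for a list.

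**Figure D5:**
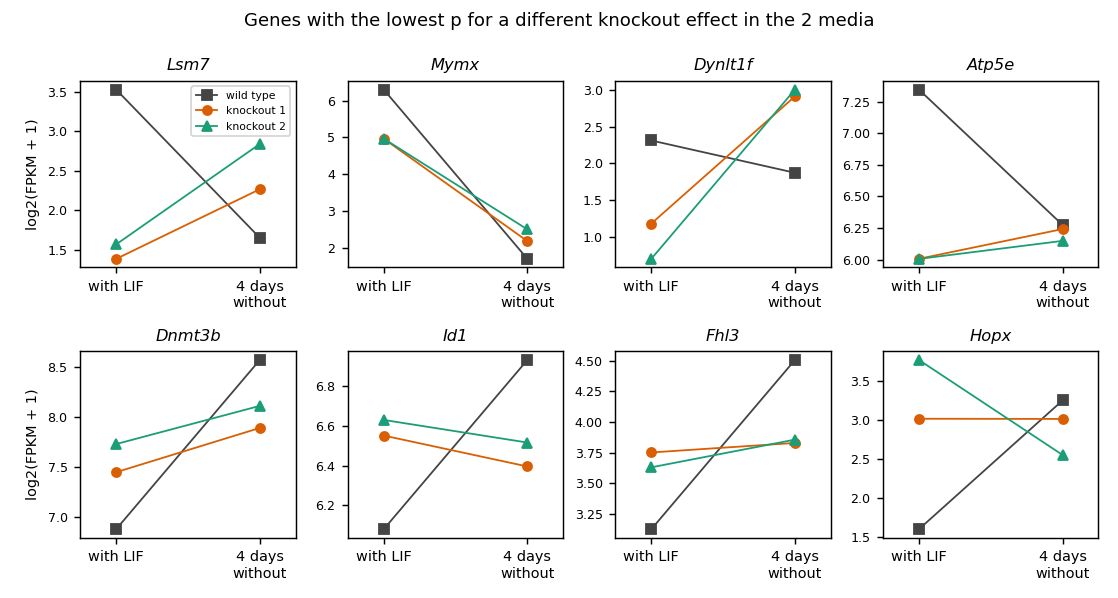
Log2(FPKM + 1) with LIF and 4 days without it for the 4 genes with the lowest p in each direction of the difference between knockout effects (top row more positive after LIF removal, bottom row more negative); squares are wild type, circles knockout 1, triangles knockout 2, 1 library a point, and each panel has its own y range. In the bottom row the wild type line climbs from below the knockout points to above them, as in Dnmt3b (117 to 379 FPKM); no gene passed the test of the difference, and lines join libraries by number only to guide the eye.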

How the data were processed

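RNA of 6 libraries of E14 mouse ESCs was sequenced as 150 bp paired-end reads, per the labels' protocols. The authors deposited 1 table of FPKM per gene symbol and library, made with STAR and Cufflinks on mm10, per the submitters' processing notes. The tools' versions, parameters, annotation and strand setting were not given in the sources used here. Read counts were not used here, so the depth behind a value is unknown. From the commonest ratio among genes under 0.3 FPKM, relative depth against the wild type library after LIF removal was 0.898 and 0.837 in the knockout libraries, but 13.9% of such genes lay within 0.01 (log2) of that ratio. Library sums of FPKM lay between 456155 and 556318. Genes with many near-identical copies have doubtful values: Gapdh lay between 1.31 and 1.81 FPKM after LIF removal, Actb between 1195 and 1468.

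Values were analysed as log2(FPKM + 1), which understates differences of low genes. Tests used limma 3.58.1 in R 4.3.3 (4 groups over 6 libraries, intensity trend, two-sided), with 2 residual and 4.75 prior degrees of freedom from the knockout pairs. The lone wild type library is assumed to vary like them. The model code was tested on simulated data. Positions are from GENCODE M21 or RefSeq, which placed 25090 of 25170 symbols, and promoters from RefSeq.

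Named genes are Hnrnpf, every gene called, the 12 largest shared rises and falls by the smaller of the knockout differences (at least 5 FPKM in wild type or in both knockout libraries, without unnamed models, ribosomal, mitochondrial, histone and small RNA symbols), a panel of 25 genes of which Gata6, Sox17 and Sox1 were not tested, the 4 members of a list with the lowest p, the 4 genes a direction with the lowest p for the difference between media, and the 4 a direction with the widest gap between knockout libraries. Of 460 entries in 27 lists 458 were found and 380 tested. The comparison, lists and rules were chosen with earlier results of these data known. A few genes that the rules name are not reported here.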

Additional observations from a re-analysis of the deposited data

How the results depend on the processing

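The 7 calls of knockout against wild type after LIF removal became 14 with a pseudocount of 0.1, 4 with 5, 0 without a filter on low values and 4 without limma's intensity trend. With the 3 libraries after LIF removal fitted alone they became 42 (34 higher, 8 lower). With a mean of at least 5 FPKM there were 9, with quantile normalization 8, and with median ratio scaling or a filter over 6 libraries 7, and the 7 reported genes were among them in each of these. Leaving out single libraries gave between 4 and 47 calls. The genes past a log2 of 1 in both knockout libraries, 131 higher and 57 lower, became 299 and 109 with a pseudocount of 0.1, 27 and 11 with 5, and 77 and 29 with a mean of at least 5 FPKM. Without chromosomes 6, 8 and 11 there were 65 higher, and with a single knockout library between 230 and 362 higher and between 142 and 180 lower. The difference between media, which cannot be fitted from the 3 libraries alone, gave 0 calls in the other fits except that with the replicate block. The cause of these changes was not tested, apart from the number of genes or libraries that an alternative leaves in.

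The knockout numbers are not shown by the labels to pair the libraries. The difference of library 2 and library 1 correlated between media with r = 0.378 across 11776 genes, which are not independent. With the replicate block limma called 879 genes (528 higher, 351 lower), the 7 among them, and 2 for the difference between media, and Hnrnpf passed (adjusted p = 0.000104), from 1 residual degree of freedom.

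Some values near 0 changed sign. With quantile normalization Hnrnph2 stood at 0.020 and Mixl1 at -0.033, the median of maternally expressed genes at -0.00052 and that of splicing regulators at 0.0081, and without chromosomes 6, 8 and 11 the naive median stood at -0.061. Cox7a1 stood at 0.082 with a pseudocount of 5. Without knockout library 1 after LIF removal and without library 2, the values were -0.29 and 0.37 for Esrrb, -0.41 and 0.68 for Zfp42, -0.25 and 0.059 for Tfcp2l1, 0.020 and -0.74 for Fgf5, 0.38 and -0.22 for Mixl1, 0.31 and -1.19 for Gstp1, -0.29 and 1.64 for Rab26os, and -1.05 and 1.04 for Cox7a1. Among the named genes and these alternatives 735 values kept direction and side of the threshold, 67 came to pass it and 18 no longer did. The alternatives for list medians were chosen after seeing the data.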

Other observations

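Some genes differed widely between the knockout libraries after LIF removal. H19, the maternally expressed non-coding RNA next to Igf2, stood at 20.4 FPKM in wild type, 27.4 in knockout library 1 and 118 in library 2. Acta1, skeletal muscle actin, stood at 2.42, 6.20 and 27.0 FPKM and Pmp22, a membrane protein gene of myelin, at 1.80, 5.17 and 18.9. These 3 were higher in both knockout libraries, library 2 far above library 1, whereas Gstp1, a glutathione transferase gene, stood at 36.0, 15.2 and 45.0. With LIF, knockout library 2 was also the highest for H19, at 3.97, 7.55 and 56.1 FPKM in the same order.

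In the other direction, Cox7a1, a subunit of cytochrome c oxidase, stood at 6.05 FPKM in wild type, 13.5 in knockout library 1 and 2.41 in library 2. Rab26os, an antisense RNA whose reads may mix with those of its partner, stood at 10.6, 35.1 and 8.47. Amd1, which encodes an enzyme of polyamine synthesis, stood at 39.1, 28.04 and 10.4, and with LIF at 8.79, 0.0273 and 23.5. The log2 gap between knockout libraries was largest for Cox7a1 among genes higher in library 1, at -2.08, and for H19 among those higher in library 2, at 2.06, under the rule for named genes.

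Genes of the 2-cell-like state were mostly unmeasured, with 3 of 14 listed tested. Zscan4d stood at 0.521, 1.02 and 2.40 FPKM in wild type, knockout 1 and knockout 2, Zscan4c at 1.15, 0.745 and 2.86 and Eif1a at 116, 125 and 118, and none passed the threshold.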
